A study of Mus musculus with 2207 samples.

Results

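The genes examined here encode the nuclear share of the mitochondrial respiratory chain and of ATP synthase, and their RNA was read in single nuclei of mouse frontal cortex. Members were all protein-coding genes whose symbol starts with Nduf, Uqcr, Sdha, Sdhb, Sdhc, Sdhd, Cox4 to Cox8 or Atp5. The rule took 97 of the 52636 genes in the deposited tables, after 13 of the 110 rows with these prefixes had been left out as pseudogenes or non-coding. They comprised 7 catalytic core, 29 accessory and 8 assembly genes of complex I, 4 subunit and 4 assembly genes of complex II, 8 genes of complex III, 20 of complex IV and 17 of complex V.

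Complex I (NADH dehydrogenase) and complex II (succinate dehydrogenase) pass electrons from NADH and succinate to ubiquinone, complex III (the cytochrome bc1 complex) passes them on to cytochrome c, and complex IV (cytochrome c oxidase) passes them to oxygen. Complexes I, III and IV pump protons out of the mitochondrial matrix, and complex V (ATP synthase) lets them back in to make ATP. Apart from complex II, each complex also holds subunits encoded by mitochondrial DNA, so its assembly draws on both genomes. Fast-spiking inhibitory interneurons are known for a high demand for ATP. Several subunits of complex IV exist as a ubiquitous form and as a form first described in heart and skeletal muscle.

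The study asked how loss of a copy of Ehmt1, the gene of the histone methyltransferase GLP that is mutated in Kleefstra syndrome, changes cortical cell types, and whether GLP supplied to forebrain neurons after birth restores them. Nuclei were sorted by DAPI and each was sequenced on its own by full-length random displacement amplification (RamDA-seq), and 2207 nuclei were deposited, in 6 pools of 3 mice that each held 16.4% to 16.8% of them. By the labels all mice were C57BL/6 (of the J substrain in the study's methods), 14 weeks old, and given 100 mg/kg tamoxifen 2 times from 3 weeks of age. The 96-well plates held a wild-type pool (Ehmt1+/+) and an Ehmt1delta/+ pool, written Ehmt1 Δ/+ here. By their labels, all 4 pools on 384-well plates carried Ehmt1 iTg, a transgene that yields FLAG-tagged GLP after Cre. The wild-type and Ehmt1 Δ/+ pools there had no CamKII-CreER, the tamoxifen-activated Cre of forebrain neurons. The iTg pool and the Ehmt1 Δ/+; iTg pool had CamKII-CreER. A legend in the study instead names CamKII-CreER for every genotype of this set, and the labels do not settle this, so every value given below with or without Cre rests on the labels. Below, values given for 6 pools stand in this order, and values for 4 pools leave out those with Cre. Since nuclei cannot be traced to single mice, all tests compared pools, and spread between mice could not be measured.

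The authors had assigned each nucleus to neurons (1664 nuclei), microglia or oligodendrocytes from clusters and markers of the same RNA data. The summed level of 6 neuron markers was 268.2 to 348.3 RPKM in the pools' neurons and at most 75.6 RPKM in the glia. That of 7 microglia markers was 2216 to 3253 RPKM in microglia and at most 3.99 RPKM elsewhere. That of 7 oligodendrocyte markers was 2977 to 4524 RPKM in oligodendrocytes and at most 27.8 RPKM elsewhere. Median read totals recovered per nucleus were 323273 to 397880 in neurons of the 6 pools and 441701 to 510639 in 96-well glia, but 39940 to 54877 in 384-well glia. The median member was above 0 in 62.7% to 86.6% of neurons, in 38.03% to 55.6% of 96-well glia and in 10% to 17.9% of 384-well glia, so single members in 384-well glia rest on few reads.

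RNA of Ehmt1 itself went against its label, whereas the study's western blots found less GLP protein in Ehmt1 Δ/+ brain than in wild type. In neurons it stood at 18.7, 31.2, 19.5, 31.7, 20.7 and 33.9 RPKM in the 6 pools, higher in each pool labelled Ehmt1 Δ/+ than in its control. The limma ratio in neurons was 0.71 ± 0.10 on the log2 scale (SE, adjusted p = 0.461 over 23853 genes), and the deleted part of the gene could not be read separately from the rest. Directions drawn from this label below are therefore given for libraries labelled Ehmt1 Δ/+. Whether reads of the transgene enter the Ehmt1 values of the pools with Cre was not tested.

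Short stretches before and into the first exon of 4 members are shown because they carry letters of motifs long known from respiratory chain promoters. The text returns to Ndufaf5, Ndufa11 and Cox6a1, and Uqcr11 is shown for holding both motifs. The sequences are RefSeq's for build GRCm38.p6, which has the coordinates of the authors' mm10, and are written on the gene's strand from 250 bases before the start site to 30 bases after it. Capitals mark GCATGCGC (core of the NRF1 motif) or CCGGAAGT (ETS family). In Ndufaf5, Ndufa11 and Cox6a1 the NRF1 letters lie on both strands and overlap. The windows are Ndufaf5 at chr2:140170396-140170675 (plus strand), Ndufa11 at chr17:56717512-56717791 (plus strand), Cox6a1 at chr5:115348929-115349208 (minus strand) and Uqcr11 at chr10:80406792-80407071 (minus strand).
Ndufaf5: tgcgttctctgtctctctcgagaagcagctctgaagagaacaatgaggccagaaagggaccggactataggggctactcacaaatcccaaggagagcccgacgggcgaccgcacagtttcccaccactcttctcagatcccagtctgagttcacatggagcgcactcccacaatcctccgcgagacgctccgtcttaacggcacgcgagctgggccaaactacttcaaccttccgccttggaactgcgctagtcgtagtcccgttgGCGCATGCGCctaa
Ndufa11: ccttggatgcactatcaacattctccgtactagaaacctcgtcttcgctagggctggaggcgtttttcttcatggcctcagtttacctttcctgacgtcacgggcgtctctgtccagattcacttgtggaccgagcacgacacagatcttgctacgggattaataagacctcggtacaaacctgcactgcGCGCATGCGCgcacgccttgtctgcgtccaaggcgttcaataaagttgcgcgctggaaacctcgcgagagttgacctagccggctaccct
Cox6a1: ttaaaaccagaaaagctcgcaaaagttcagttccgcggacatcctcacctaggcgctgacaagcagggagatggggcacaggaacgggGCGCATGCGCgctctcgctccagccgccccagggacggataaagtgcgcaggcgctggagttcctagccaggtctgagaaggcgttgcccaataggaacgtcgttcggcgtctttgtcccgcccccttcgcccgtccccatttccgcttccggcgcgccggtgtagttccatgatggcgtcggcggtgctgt
Uqcr11: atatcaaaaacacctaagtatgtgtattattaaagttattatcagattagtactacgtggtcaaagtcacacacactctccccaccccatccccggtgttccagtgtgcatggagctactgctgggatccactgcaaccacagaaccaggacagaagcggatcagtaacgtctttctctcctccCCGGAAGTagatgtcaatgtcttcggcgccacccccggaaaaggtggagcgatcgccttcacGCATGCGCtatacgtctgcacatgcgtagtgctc

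A window was given for 80 of the 97 members. Over the whole window, which runs to 50 bases past the start site, and on both strands, GCATGCGC was found in 15% of members against 3.94% of 17492 protein-coding genes. The YY1 letters AAGATGGC were found in 13.8% of members against 3.57%, and the ETS letters CCGGAAGT in 6.25% against 5.69%. At least 1 of these motifs was present in 33.8% of members and in 12.3% of all protein-coding genes. Of the members called higher in inhibitory neurons below, 3 of 32 with a window held the NRF1 letters, against 9 of 44 other members tested. The ETS letters were in 0 of 32 against 5 of 44, and the YY1 letters in 6 of 32 against 5 of 44. A match describes the letters of the window and is no evidence of binding.

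Levels differed widely between members of a complex. RPKM (reads scaled by exon length and by the library's mapped reads) is a level per length. The means here are over the 18 combinations of pool and cell type. Plate format moved members in opposite directions, as given below, so their order holds for this mean only. Among the highest were the complex I core gene Ndufv1, which binds NADH, at 24.4 RPKM, and the catalytic F1 subunits of ATP synthase, Atp5a1 at 17.7 and Atp5b at 14.6 RPKM. The complex III core protein Uqcrc1 was at 16.4 RPKM and the flavoprotein of complex II, Sdha, at 16.1 RPKM. Complex IV was led by Cox6a1 at 15.2 and Cox4i1 at 13.04 RPKM. The accessory complex I genes Ndufa3 at 14.8 and Ndufa6 at 12.99 RPKM stood above the assembly factors Ndufaf7 at 10.3 and Ndufaf6 at 6.53 RPKM. The complex III core gene Uqcrc2 was at 11.1 RPKM and the iron-sulfur subunit of complex II, Sdhb, at 10.8 RPKM. The assembly factors of complex II were lower, with Sdhaf2 at 6.73 and Sdhaf3 at 1.39 RPKM. Lowest were the tissue-restricted isoforms, among them Cox7b2 at 0.0684, Ndufa4l2 at 0.0788 and the testis form Cox8c at 0.00195 RPKM. The exons of 35 members overlap those of another gene, 14 of them over more than 10% of their exon length, and reads there could not be assigned to a strand.

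Within neurons, members of all 5 complexes were higher in inhibitory than in excitatory nuclei. Nuclei were split by the larger of Gad1, which makes GABA, and Slc17a7, the vesicular glutamate transporter, giving 1324 excitatory nuclei and 43 to 73 inhibitory nuclei per pool, 20.1% of those assigned, with 7 neurons left out. Of 90 members tested, 43 were higher in inhibitory nuclei and 0 lower at an adjusted p under 0.05 (limma over 22422 genes, pool as block), where 22.9% of all genes tested were higher and 21.1% lower. The median log2 ratio of the members was 0.28 against 0.02 for all genes tested, and 81 of 90 ratios were above 0. In every one of the 6 pools 42 members were higher, where 22.7% of all genes were. Of the 90, 88 were above 0 in at least 10% of nuclei of both classes in every pool, while Cox6a2 and Ndufa1 entered the test only through inhibitory nuclei. Among the 88 there were 42 called higher and 0 lower, where 23.1% of all genes that passed in both classes were higher and 19.1% lower. Summed over the 97 members, excitatory nuclei stood at 793, 668, 661, 629, 614 and 705 RPKM, and inhibitory nuclei at 975, 797, 821, 761, 768 and 851 RPKM. The sum was higher in inhibitory nuclei of each pool, while the ranges of the classes over pools overlapped.

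The higher members were spread over the chain. They were 5 of 7 core, 12 of 29 accessory and 4 of 8 assembly genes of complex I, 3 of 4 subunits and 0 of 3 assembly genes of complex II, 2 of 8 genes of complex III, 7 of 14 of complex IV and 10 of 17 of complex V. After Cox6a2, described below, the largest ratio was that of Ndufaf5, a complex I assembly factor. It stood at 9.41, 9.26, 3.60, 3.97, 3.81 and 4.22 RPKM in excitatory and at 14.9, 15.9, 6.52, 8.35, 6.82 and 8.36 RPKM in inhibitory nuclei. The inhibitory level was higher in every pool, at a log2 ratio of 0.85 ± 0.07 (SE, 1.81-fold, adjusted p = 0.000113, limma).

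Ndufv3, a small accessory subunit beside the NADH site, ran from 4.36 to 7.72 RPKM in excitatory and from 6.34 to 12.9 RPKM in inhibitory nuclei (log2 ratio 0.61 ± 0.09, adjusted p = 0.00151, limma). The accessory gene Ndufa11, of the membrane arm, stood at 3.06, 2.33, 5.85, 4.89, 5.10 and 4.38 RPKM in excitatory and at 3.74, 3.75, 8.21, 7.20, 8.82 and 6.62 RPKM in inhibitory nuclei. Its inhibitory level was higher within each pool although the plate formats differed (log2 ratio 0.56 ± 0.08, adjusted p = 0.00120). Ndufaf2, another complex I assembly factor, had a log2 ratio of 0.63 ± 0.12 (adjusted p = 0.00514) at levels of at most 2.04 RPKM, and 65.6% of its exon length overlaps the non-coding gene B230220B15Rik.

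In complex II, the flavoprotein Sdha stood at 21.5, 20.1, 11.6, 11.2, 11.1 and 12.5 RPKM in excitatory and at 28.1, 26.7, 16.2, 14.7, 16.3 and 17.6 RPKM in inhibitory nuclei. It was higher in inhibitory nuclei of every pool (log2 ratio 0.45 ± 0.06, adjusted p = 0.000840, limma). The membrane anchors Sdhd and Sdhc were higher too, by 0.56 ± 0.15 and 0.45 ± 0.08. Sdhb, the iron-sulfur subunit, was at 0.17 ± 0.07 and was not called (adjusted p = 0.0711). In complex V the α and β subunits of the catalytic head rose by the same measure, Atp5a1 by 0.48 ± 0.07 and Atp5b by 0.46 ± 0.06 (adjusted p = 0.000912 and 0.000768). In complex III 2 of 8 genes were higher. The core gene Uqcrc1 stood between 20.6 and 31.8 RPKM in excitatory and between 19.4 and 31.3 RPKM in inhibitory nuclei (log2 ratio -0.03 ± 0.06, adjusted p = 0.715), while the other core gene, Uqcrc2, was higher in inhibitory nuclei.

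**Figure D1:**
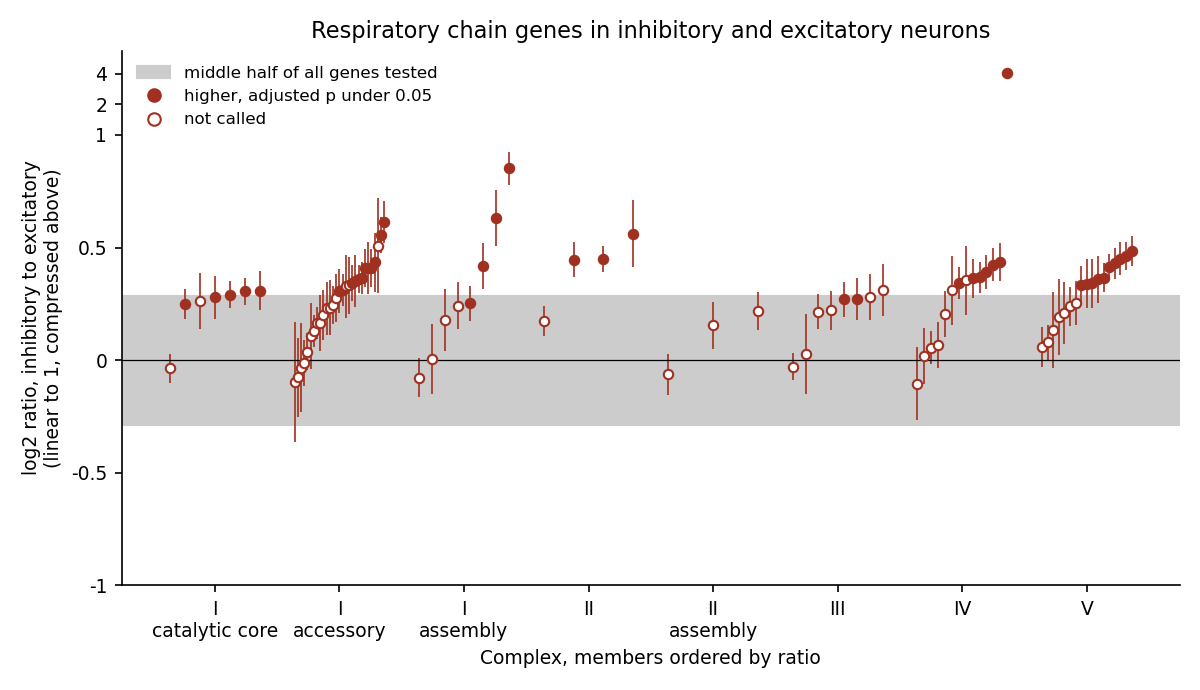
Log2 ratio of inhibitory to excitatory nuclei for the 90 members tested, by complex, with bars for the SE over 6 pools. Filled points are the 43 called higher, the grey band runs from the lower to the upper quartile of all genes tested, and the point near 4 in complex IV is Cox6a2.

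Genes that work beside the chain gave the following counts in the same fit. All 13 mitochondrially encoded mRNAs were higher in inhibitory nuclei (median log2 ratio 0.97), with sums of 97.6 to 415 RPKM in excitatory and 227.9 to 850 RPKM in inhibitory nuclei. Of 14 tricarboxylic acid cycle genes 9 were higher and 0 lower (median 0.28). Of 38 other assembly factors and electron carriers 10 were higher and 2 lower (median 0.15), and of 17 glycolysis genes 4 were higher and 4 lower (median -0.05). Of 14 regulators of mitochondrial biogenesis 4 were higher and 2 lower (median 0.07). Ribosomal protein genes, which are short and abundant like many members, gave 8 higher and 1 lower of 81 (median 0.10). Median read totals were 357643 and 361958 in 96-well inhibitory nuclei against 340936 and 349908 in excitatory ones, and 246009 to 369384 against 333929 to 406929 in the 384-well pools. The part of read totals and of mitochondrial RNA in the nuclear-encoded result was not tested. With nuclei limited to those with only Gad1 or only Slc17a7 above 0, 14 of 88 members were higher and 0 lower, at a median of 0.25. That set held 10 to 37 inhibitory nuclei per pool. Its share of all genes called is not given, so the lower count cannot be read as one about the members.

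Cox6a2, the isoform of complex IV subunit VIa first known from heart and muscle (chr7:128205435-128206387, minus strand, mm10), had the largest ratio of all members. It stood at 0.0704, 0.0366, 0.0433, 0.404, 0.0233 and 0.0676 RPKM in excitatory nuclei and at 1.68, 1.74, 5.19, 2.53, 4.85 and 3.16 RPKM in inhibitory nuclei. No pool's excitatory level reached the lowest inhibitory level. Since Cox6a2 entered the test only through the class where it was high, its log2 ratio of 4.06 ± 0.39 (SE) is given as a description, without a test. RNA was read in 11.5% to 23.3% of inhibitory and in 0.45% to 1.98% of excitatory nuclei. Its ubiquitous partner Cox6a1 was at 15.5 ± 5.20 RPKM in inhibitory and 13.05 ± 2.69 RPKM in excitatory nuclei (SD, n = 6 pools), with a ratio that was not called (0.21 ± 0.10, adjusted p = 0.145). Cox6a2 made up 17.5% ± 7.81 of the summed level of the pair in inhibitory and 0.814% ± 1.09 in excitatory nuclei (SD, n = 6 pools).

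Among inhibitory nuclei, Cox6a2 was higher where Pvalb was the largest of the interneuron markers Pvalb, Sst and Vip than in the remaining nuclei as a group. Pvalb marks fast-spiking basket and chandelier cells. In these nuclei, 10 to 17 per pool, Cox6a2 was at 3.77, 2.41, 10.9, 13.2, 11.2 and 10.3 RPKM in the 6 pools, against 0.897, 1.54, 3.45, 0, 2.11 and 0.119 RPKM in the other inhibitory nuclei. Nuclei with none of the 3 markers did not all follow this, at 4.63 RPKM in the 96-well Ehmt1 Δ/+ pool, above its Pvalb nuclei, and at 6.64 RPKM in the wild-type 384-well pool. Against the other nuclei as a whole the level was higher in 6 of 6 pools. This split was chosen after the values of Cox6a2 had been seen, so the result is given as a description, without a test. RNA of Cox6a2 was read in 30% to 60% of the Pvalb nuclei of a pool and in 0% to 12.5% of the others. The sum over all 97 members was 1078, 965, 996, 952, 920 and 1039 RPKM in Pvalb nuclei and 935, 746, 768, 716, 702 and 771 RPKM in the other inhibitory nuclei. The mitochondrially encoded sum was lower in Pvalb nuclei of the wild-type 96-well pool, at 360.9 against 636 RPKM. It was also lower on 384-well plates without Cre, at 148.9 against 299.3 RPKM in wild type and 558 against 920 RPKM in Ehmt1 Δ/+. In the other pools it was higher, at 249.5 against 221.3 RPKM (96-well Ehmt1 Δ/+), 809 against 803 RPKM (iTg) and 409 against 392 RPKM (Ehmt1 Δ/+; iTg). Pvalb nuclei had the larger median read totals, 470674 against 325783 in the wild-type 384-well pool, and the part of depth in these shares was not tested.

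**Figure D2:**
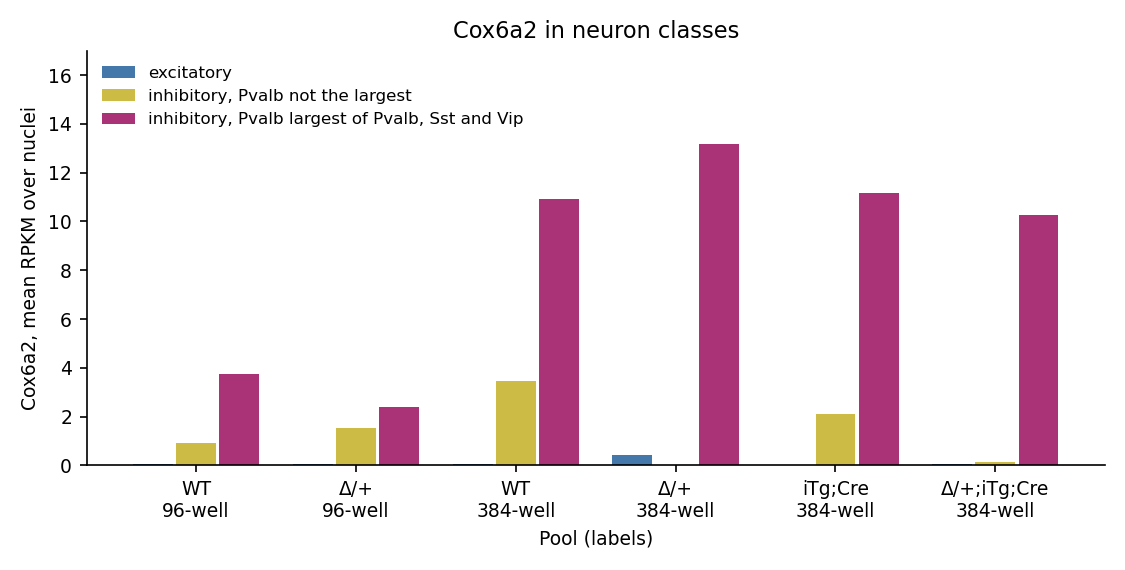
Mean Cox6a2 RPKM over nuclei in each pool, for excitatory nuclei and for inhibitory nuclei with and without Pvalb as the largest of Pvalb, Sst and Vip. The Pvalb bars, 2.41 to 13.2 RPKM, are the highest in all 6 pools, and excitatory nuclei are at most 0.404 RPKM.

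Cox6a2 was also read in nuclei labelled oligodendrocyte, at 3.00, 6.67, 0.713, 4.61, 0.246 and 4.41 RPKM. The pools labelled Ehmt1 Δ/+ were all above those of wild-type Ehmt1 genotype. Cox6a2 was among the members picked by the ratio of this label in oligodendrocytes. It entered the test of the label only through the Ehmt1 Δ/+ pools and was not called, so the direction is a description. RNA was read in 23.3%, 47.9%, 1.45%, 10.9%, 1.41% and 13.4% of oligodendrocyte nuclei. Over 10.3% of its exon length Cox6a2 overlaps Itgad, an integrin gene, which had a mean of 1.91 RPKM in oligodendrocytes, 0.237 RPKM in inhibitory and 0.0205 RPKM in excitatory nuclei. The share of Cox6a2 reads that Itgad could supply was not tested.

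Most other isoform sets were carried by the ubiquitous form. In neurons Cox4i1 made up 98.4% ± 0.626 of the Cox4i pair, Cox7b 98.6% ± 0.812 of the Cox7b pair, Cox8a 95.1% ± 2.16 of the Cox8 set and Ndufa4 95.1% ± 4.57 of its pair with Ndufa4l2 (SD, n = 6 pools). The hypoxia-linked forms Cox4i2 and Ndufa4l2 and the testis form Cox7b2 were listed at 0 in microglia of every pool. Cox6b1 held 96.2% ± 2.40 of the Cox6b pair in neurons but 66.8% ± 17.9 in oligodendrocytes, where the testis form Cox6b2 stood at 1.49 to 4.43 RPKM in the pools, against 0.147 to 0.498 RPKM in neurons. The ranges of Cox6b2 in these cell types did not overlap. In the Cox7a set, Cox7a2l made up 51.1% ± 4.16, Cox7a2 38.1% ± 4.59 and the muscle form Cox7a1 10.8% ± 2.94 in neurons. Several genes encode the same mature c-ring protein of ATP synthase. Of these, Atp5g3 made up 57.9% ± 9.82, Atp5g1 25.5% ± 6.07 and Atp5g2 16.6% ± 3.90 in neurons, while in microglia Atp5g2 made up 43.5% ± 20.7.

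Most members had ratios of neurons to glia above 0, and so did most genes tested. Summed over members, neurons stood at 838, 690, 702, 652, 645 and 731 RPKM, microglia at 821, 688, 648, 553, 434 and 698 RPKM and oligodendrocytes at 703, 541, 598, 534, 506 and 570 RPKM. Neurons were highest in every pool, though in the 96-well pools they exceeded microglia by little. Against oligodendrocytes 23 of 89 members were higher and 4 lower (limma over 22735 genes, pool as block), where 39.1% of all genes were higher and 13.3% lower. Their median log2 ratio was 0.68 against 0.57 for all genes. Of the 89, 43 passed the filter on low values in both cell types and 46 through neurons only. Among the 43, 13 were higher and 3 lower at a median of 0.35, where 19.6% of genes that passed in both were higher and 25% lower at a median of -0.04. Against microglia 28 were higher and 5 lower (background 44.7% and 19.7%), at a median of 0.68 against 0.80. Here 35 passed in both, with 9 higher and 4 lower at a median of 0.15. Of all genes that passed in both, 18.6% were higher and 41.3% lower, at a median of -0.32. Between microglia and oligodendrocytes 9 were higher in microglia and 5 lower (background 21.9% and 22.2%), at a median of -0.16 against -0.09. With each set centred on its genes above 0 throughout, the calls were 42 higher and 2 lower for neurons against microglia and 6 higher and 11 lower for microglia against oligodendrocytes. The share of all genes called after centring is not given, so no result about the members is drawn from these counts. Since the cell types were drawn from the same RNA, these adjusted p-values describe the split and are no independent test of it.

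Plate format changed the comparison with microglia. In the 96-well pools alone the median member was at -0.02 between neurons and microglia, with 9 of 92 higher and 7 lower, and at 0.28 between microglia and oligodendrocytes, with 12 higher and 3 lower. The share of all genes called in the 96-well pools alone is not given, so these counts are no result about the members. Ndufa1, a small accessory subunit, stood at 8.48 and 2.74 RPKM in 96-well neurons and at 11.2 and 6.72 RPKM in 96-well microglia, but was listed at 0 in the microglia of all 4 384-well pools. Uqcrfs1, the Rieske iron-sulfur protein of complex III, stood at 5.97 and 4.34 RPKM in 96-well neurons and at 9.42 and 8.30 RPKM in 96-well microglia, and was at 0 to 0.575 RPKM in 384-well microglia. Over 6 pools both were called higher in neurons, at 2.62 ± 0.88 and 2.42 ± 0.80, and in the 96-well pools alone both ratios had the opposite sign (-0.83 and -0.79). Both entered the fit through neurons only.

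Among the members lower in neurons, all 4 against oligodendrocytes and 4 of 5 against microglia belonged to complex I. Ndufs8, an iron-sulfur subunit of the core, stood at 7.32, 5.25, 10.2, 9.45, 9.10 and 7.61 RPKM in neurons and at 19.9, 19.01, 35.95, 43.7, 23.04 and 27.3 RPKM in microglia. Neurons were lower in every pool without overlap, by a log2 ratio of -1.74 ± 0.18 (adjusted p = 2.70e-06, limma). Ndufs7, which carries the last iron-sulfur cluster before ubiquinone, stood at 11.3, 9.93, 21.6, 19.5, 21.4 and 17.2 RPKM in neurons and at 21.9, 19.7, 45.1, 28.9, 39.2 and 31.04 RPKM in oligodendrocytes. It too was lower in neurons of every pool (log2 ratio -0.88 ± 0.18, adjusted p = 0.00107). The accessory gene Ndufb11 was lower in neurons than in both glial types (-1.45 ± 0.26 and -1.18 ± 0.26), and 12.9% of its exon length overlaps Rbm10.

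Uqcrc1, the core protein of complex III, was higher in neurons than in oligodendrocytes. It stood at 20.3, 20.9, 31.6, 29.9, 28.5 and 26.95 RPKM in neurons and at 10.6, 6.92, 10.1, 8.08, 9.63 and 10.7 RPKM in oligodendrocytes. The ranges did not overlap and the log2 ratio was 1.48 ± 0.19 (adjusted p = 2.68e-05, limma). Complex I and V genes with called neuronal excess included the accessory gene Ndufa5 (2.43 ± 0.64), the assembly factor Ndufaf6 (1.89 ± 0.43), the c-ring gene Atp5g1 (1.496 ± 0.55) and the stalk subunit Atp5o (1.31 ± 0.37). The small complex III subunit Uqcrb was at 1.93 ± 0.54. Of these 5 only Atp5o passed the filter on low values in oligodendrocytes too, so the ratios of the others are a description. Between the glial types, Ndufa9, an accessory subunit near the ubiquinone site, stood at 12.2, 11.4, 5.68, 7.68, 5.99 and 9.86 RPKM in microglia, against 3.803, 6.80, 2.95, 3.09, 1.92 and 3.03 RPKM in oligodendrocytes. Microglia were higher in every pool (1.31 ± 0.18), as they were for the ATP synthase membrane subunit Atp5j2 (1.38 ± 0.16).

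Of the mitochondrially encoded partners, in contrast, neurons held the least in every pool and microglia the most. Their sum was 419.8, 118.4, 176.999, 403, 491 and 245.6 RPKM in neurons, 999, 393, 743, 1869, 2281 and 1200 RPKM in oligodendrocytes and 3382, 790, 3130, 10955, 8405 and 5209 RPKM in microglia. All 13 were lower in neurons than in either glial type, with median log2 ratios of -1.94 and -3.84. What part these reads have in the nuclear-encoded values was not tested. Of ribosomal protein genes 2 were higher and 26 lower of 81 in neurons against microglia.

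**Figure D3:**
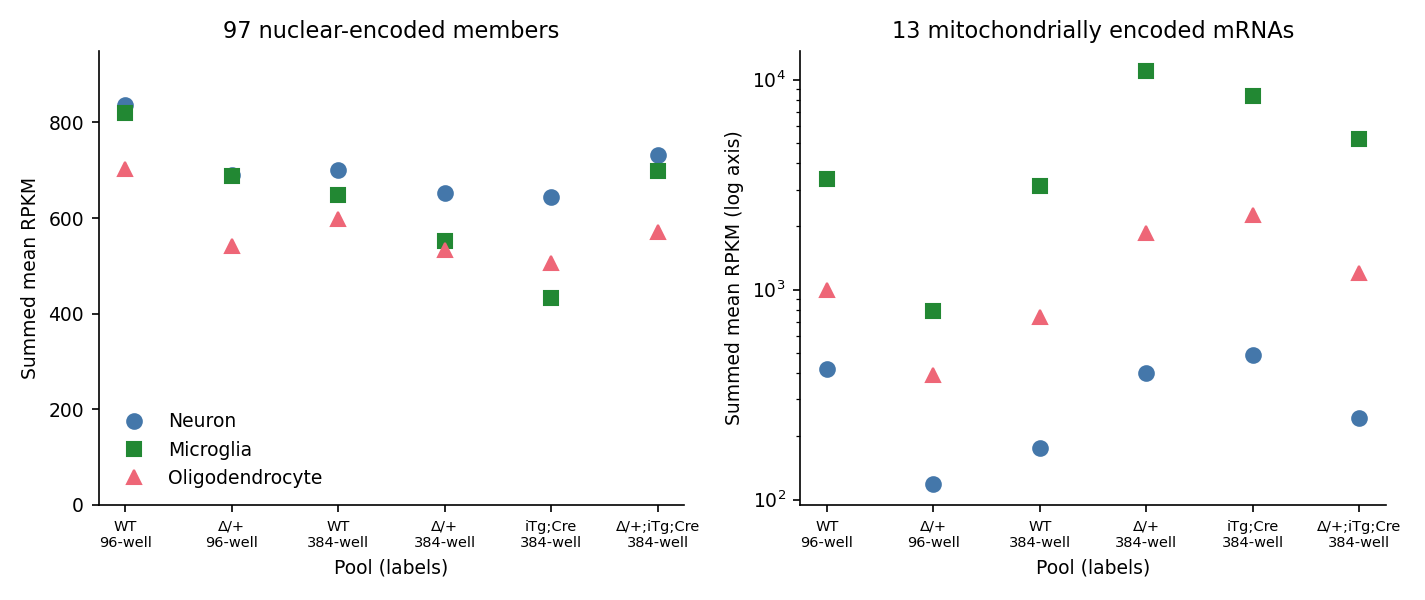
Summed mean RPKM of the 97 members (left, linear axis from 0) and of the 13 mitochondrially encoded mRNAs (right, log axis) in neurons, microglia and oligodendrocytes of each pool. Members range from 434 to 838 RPKM with neurons highest in every pool, and the mitochondrial mRNAs from 118.4 to 10955 RPKM with microglia highest in every pool.

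In neurons labelled Ehmt1 Δ/+, most members had ratios to wild type slightly below 0 and none passed the test. Over the 4 pools without Cre 81 of 89 ratios were below 0, at a median of -0.19 on the log2 scale against -0.03 for all genes. All 89 passed the filter on low values under both labels, and of all genes that did so 12879 of 22359 were below 0. At an adjusted p under 0.05, 0 members and 0% of all genes tested were called (limma, plate format as block). The fit leaves 1 residual degree of freedom. Without adjustment, at p under 0.05, 13 members were lower and 0 higher, where 6.99% of all genes were lower and 3.19% higher. In both plate formats 64 members were lower, where 35% of all genes were. By complex, the ratio was below 0 for 29 of 29 accessory genes of complex I, 6 of 7 of its core genes, 5 of 8 of its assembly genes, 4 of 4 subunits and 2 of 3 assembly genes of complex II, 7 of 8 genes of complex III, 12 of 13 of complex IV and 16 of 17 of complex V. Of ribosomal protein genes 78 of 81 were below 0, at a median of -0.23. Of 38 other assembly factors and electron carriers 32 were below 0 (median -0.10), and of 14 tricarboxylic acid cycle genes 10 (median -0.08).

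Uqcr10, a small subunit of complex III, had the lowest value when each member was ranked by whichever of its ratios in the 96-well and 384-well formats lay nearer 0. It stood at 11.04 and 7.41 RPKM in wild type and Ehmt1 Δ/+ neurons of the 96-well plates and at 10.9 and 7.29 RPKM on the 384-well plates. The log2 ratio was -0.57 ± 0.10 (adjusted p = 0.461, limma). Uqcr10 was picked by these same ratios, so its values are a description. With Cre it was at 7.92 and 8.43 RPKM. Atp5e, the ε subunit of ATP synthase, stood at 3.81, 2.70, 3.17 and 2.30 RPKM in the 4 pools without Cre and at 1.78 and 3.09 RPKM with Cre. The pools labelled Ehmt1 Δ/+ were lower in both pairs without Cre and higher with it. Further low ratios were those of the accessory genes Ndufa13 (-0.46 ± 0.12) and Ndufa6 (-0.41 ± 0.11) and of Cox7a2 (-0.38 ± 0.10). The members above 0 in both formats were the assembly factors Ndufaf4 (0.24 ± 0.14) and Sdhaf2 (0.09 ± 0.11) and Atp5s (0.08 ± 0.10), none of them called.

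The size of the shift differed between pairs of pools. In neurons the median member was at -0.24 on 96-well plates (80 of 89 below 0), at -0.12 on 384-well plates without Cre (70 of 89) and at 0.27 in the pair with Cre (16 of 89), where the median of all genes was -0.03, -0.03 and 0.21. Within the 3 codes in library names that both 96-well pools shared (the labels do not say what a code stands for), the median member was at -0.13, -0.27 and -0.30. With the label fitted over all 6 pools the median was -0.04, and without the 25% of nuclei highest in mitochondrial mRNA it was -0.18. The 13 mitochondrially encoded mRNAs were all lower in the 96-well pair (median -1.82), all higher in the 384-well pair without Cre (1.13) and all lower in the pair with Cre (-1.02), so they did not keep to the direction of the members. On 384-well plates the wild-type pool carried another such code than the other 3 pools, so code and label cannot be told apart in the pair without Cre, while the pair with Cre shared 1 code.

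**Figure D4:**
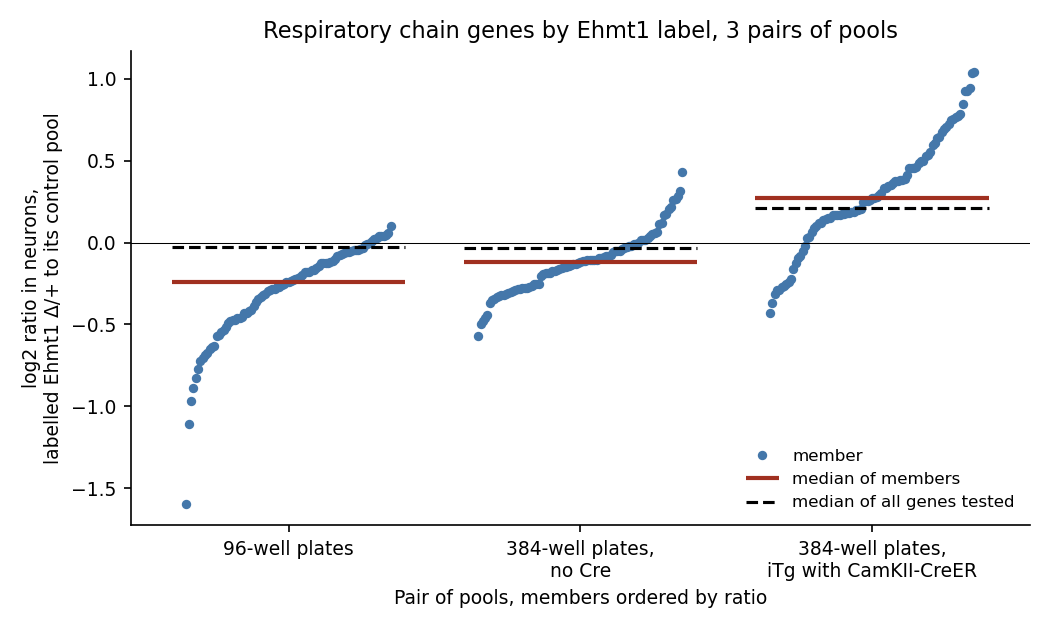
Log2 ratio in neurons of each member tested, pool labelled Ehmt1 Δ/+ to its control, in 3 pairs of pools, with the median of members (solid line) and of all genes tested (dashed line). Member medians are -0.24, -0.12 and 0.27, and there is 1 pool per label in each pair.

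Glia gave less even values. In microglia 38 of 64 members tested were below 0 (median -0.17, all genes -0.02), 21 were lower in both formats, where 25.7% of all genes were, and 0 members (0% of genes) were called, with 0 at an unadjusted p under 0.05 (0.899% of genes higher and 1.03% lower). On simulated data this microglial fit called 0 of 50 genes changed by 3 on the log2 scale, so its count of 0 cannot tell a change from none. Of the 64, 42 passed the filter on low values under both labels, with 30 below 0 at a median of -0.27. In oligodendrocytes 42 of 65 were below 0 (median -0.26, all genes -0.02), 26 were lower in both formats, where 28.1% of all genes were, and again 0 members (0% of genes) were called. At an unadjusted p under 0.05, 9 were lower and 1 higher, where 3.04% of all genes were lower and 1.68% higher. Of the 65, 48 passed the filter under both labels, with 33 below 0 at a median of -0.32. Atp5b, the catalytic β subunit, stood at 20.4, 9.72, 13.4 and 6.15 RPKM in oligodendrocytes of the 4 pools without Cre. It was lower in the pool labelled Ehmt1 Δ/+ of each format but was not called (-1.09 ± 0.26, adjusted p = 0.870, limma). Atp5b was picked by these same ratios, so its values are a description. The difference of the genotype ratio between neurons and microglia, or neurons and oligodendrocytes, was called for 0 of 89 members (0% of genes in both tests), with 3 and 0 members at an unadjusted p under 0.05. The share of all genes at that level was 1.52% above and 1.53% below 0 against microglia, and 1.01% above and 0.776% below 0 against oligodendrocytes.

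The plate formats differed by more than the genotype labels. In neurons of the 4 pools without Cre, 14 of 89 members were higher on 384-well plates and 40 lower (limma, genotype as covariate), where 20.8% of all genes were higher and 41.4% lower, and the median was -0.31 against -0.26. With each pool centred on its median gene the counts were 23 and 24, without a share of all genes to set beside them. Atp5d, the δ subunit of ATP synthase, stood at 12.5 and 10.3 RPKM on 96-well and at 29.1 and 28.8 RPKM on 384-well plates (1.35 ± 0.12). Ndufa11 was also higher there (0.999 ± 0.10), as was Ndufs7 (0.95 ± 0.10). Uqcrb, a small complex III subunit, stood at 4.65 and 3.46 RPKM on 96-well and at 1.01 and 0.886 RPKM on 384-well plates (-1.97 ± 0.12). Ndufa4, a small subunit of complex IV once counted to complex I, fell from 15.9 and 8.57 to 3.69 and 3.29 RPKM (-1.72 ± 0.22), and Atp5g3 changed by -1.49 ± 0.11. In microglia and oligodendrocytes 0 members (0% of genes) were called. At an unadjusted p under 0.05, 0 were higher and 5 lower in microglia, where 2.91% of all genes were higher and 10.6% lower. In oligodendrocytes 3 were higher and 11 lower, where 15.3% of all genes were higher and 24.3% lower. The formats differ in mice, read depth and, by the labels, an iTg allele without Cre, which cannot be told apart.

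Between 384-well pools labelled with and without CamKII-CreER, no member was called in any cell type. In neurons Ehmt1 itself had a log2 ratio of 0.09 ± 0.24 (SE) with CamKII-CreER to without, which was not called. The wild-type pool also carried another library-name code than the rest. The fits for CamKII-CreER were not run on simulated data, so how large a change they could call is not known. In neurons of the 4 384-well pools the median member was at 0.04 against 0.03 for all genes, with 0 of 89 members and 0% of genes called and 0 members at an unadjusted p under 0.05, where 0.676% of genes were higher and 0.841% lower (limma, Ehmt1 label as covariate). Among members with the same sign under both Ehmt1 labels, Sdhaf1, a complex II assembly factor, was lowest (-0.45 ± 0.25) and Atp5g3 highest (0.48 ± 0.28). In microglia and oligodendrocytes the medians over 55 members were -0.13 and -0.04, with 0 members (0% of genes) called. At an unadjusted p under 0.05, 3 were higher and 1 lower in microglia, where 3.54% of all genes were higher and 2.18% lower. In oligodendrocytes 0 were higher and 2 lower, where 2.84% were higher and 2.6% lower. With 1 pool for each combination the interaction of label and transgene could not be tested.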

How the data were processed

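Each library was 1 nucleus. Per the labels and the study's methods, the authors trimmed reads with Fastq-mcf, aligned them to mm10 with HISAT2 2.0.4, counted them on Gencode exons with Subread 1.5.0 featureCounts and deposited RPKM values. Counting used default parameters, which do not use strand. The values are not whole counts: 58.7% to 83.2% of a nucleus' values (mean 72.6%) were whole multiples of 1 read within 0.01, so no count test was run.

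Values were averaged over the nuclei of each pool and cell type. The log2(mean RPKM + 0.1) values were tested with limma 3.58.1 (R 4.3.3), Benjamini-Hochberg adjusted over all genes tested, where genes above 0 in at least 10% of nuclei of a group in every pool were tested. Folds are on that scale and understate low genes. SE is that of the fit. Pools were the unit because no label gives a mouse. Gene symbols matched 52403 of 52636 IDs. Read totals were rebuilt from steps in the RPKM values. Named members were the 2 highest per complex, all isoform sets, and up to 6 called members in each direction per comparison, or, with fewer than 6 called in all, the 5 highest and lowest ratios that kept their sign. Sdhc and the Pvalb split in the comparison of neuron classes were added after their values were seen. Results for 1 named member are not reported here. The members and lists were chosen with earlier results of these data known. The fits for neurons against oligodendrocytes and for the Ehmt1 label were tested on simulated data. With known changes of 2 on the log2 scale, 22 of 50 were called for neurons against oligodendrocytes. For the Ehmt1 label in neurons 50 of 50 were called, with 121 unchanged genes called too. The simulated noise was drawn from SDs that limma had already moderated, so counts on simulated data do not give the power of the real fits. In the simulated neurons 27 of 50 changes of 0.5 were called, while Ehmt1, at 0.71 ± 0.10 in the real neuron fit, was not. For the Ehmt1 label in microglia 0 of 50 were called at any size up to 3. In oligodendrocytes 49 of 50 were called at 2, with 76 unchanged genes called too. The p-values measure the spread between pools only.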

Additional observations from a re-analysis of the deposited data

Results flagged for a closer look

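The ratio of the pool labelled Ehmt1 Δ/+ to its control had the opposite sign with CamKII-CreER and without it, in each cell type. In the pair with CamKII-CreER the median log2 ratio of the members was 0.27 in neurons, 0.61 in microglia and 0.28 in oligodendrocytes. In the pairs without Cre it was -0.24 and -0.12 in neurons, -0.20 and -0.24 in microglia, and -0.35 and -0.04 in oligodendrocytes. With 1 pool per label in each pair the difference was not tested. The median of all genes was 0.21, 0.26 and 0.16 in the pair with Cre. No pool stood apart from the rest of its group by Dixon's test at the 95% level in the 42 groups of 6 pools checked.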

How the results depend on the processing

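No paired analysis was possible because nuclei carry no replicate number and no label ties them to a mouse. Pool was the block between cell types and neuron classes, and values within shared library-name codes stand below. Single members kept their direction and their side of the threshold in 1091 of the values recomputed, while 65 lost the threshold, 11 passed it and 7 changed sign, and the causes were not tested. The sign changed with all 6 pools in the fit for Atp5o (-0.24), Ndufc2 (-0.54) and Cox6a1 (0.24) under the Ehmt1 label in microglia, and with the 96-well pools alone for Ndufa4 (0.045) and Ndufb2 (0.19) between microglia and oligodendrocytes and for Ndufa1 (-0.83) and Uqcrfs1 (-0.79) between neurons and microglia. With the 96-well pools alone, neurons against oligodendrocytes gave 13 higher at a median of 0.48, neurons against microglia 9 higher at -0.016, and microglia against oligodendrocytes 3 lower at 0.28. With a pseudocount of 1 the first median was 0.51. Leaving out a pool, 2 to 5 members were lower in microglia than in oligodendrocytes (2 without the wild-type 384-well, iTg or Ehmt1 Δ/+; iTg pool, 3 without the 96-well Ehmt1 Δ/+ pool), and centring gave 11. Centring gave 2 lower for neurons against microglia. In inhibitory nuclei 14 members were higher when only 1 of both class genes was above 0, and 32 to 39 when a pool was left out. Counts of called members here and in the next paragraph stand without the share of all genes called, so no result about the members is drawn from them.

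For the plate format in neurons, the higher and lower counts were 9 and 24 with all 6 pools, 23 and 24 with centring (median -0.044) and 6 and 19 without the detection filter. In oligodendrocytes they were 4 and 6 with limma's trend and 3 and 2 with a pseudocount of 1. The Ehmt1 median in neurons was -0.040 with all 6 pools and -0.13 to -0.30 within codes. In microglia it was 0.013 with all 6 pools, -0.13 with centring, -0.12 without the filter, -0.22 weighted by reads, -0.41 without the nuclei highest in mitochondrial mRNA, -0.20 and -0.24 in each format, and 0.12, -0.35 and -0.66 within codes. In oligodendrocytes it was -0.35 and -0.036 in each format and -0.61 in 1 code. Thinned to equal reads, the median member was above 0 in 57.7% of neurons, 8.49% of microglia and 9.94% of oligodendrocytes of 384-well plates, against 67.7%, 12.6% and 14.2% before.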
